A study of Mus musculus with 12 samples.

Results

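The 37 genes described here encode phase II detoxification enzymes and products of the NRF2 pathway, and they were taken as a list by gene symbol from the 22350 protein-coding genes of GENCODE vM1 on the mouse mm9 assembly. All 37 symbols were found once in the annotation. The list holds 23 glutathione S-transferase genes (the Gsta, Gstm, Gstp, Gstt, Gsto, Gstk, Gstz and Mgst families), the conjugating enzymes Sult1a1, Nat1 and Nat2, the regulators Nfe2l2 and Keap1, and 9 further genes of glutathione supply, redox defence and export. For every gene and sample, the reads that called a CpG cytosine methylated or unmethylated were summed from 2000 bp upstream of the start to the end of the gene, with the promoter (1000 bp on either side of the start) and the gene body (the rest of the gene) kept apart. A methylation level is the percent of methylated reads in such a region, and it was used where a region held at least 20 reads in a sample.

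DNA methylation had been measured by ERRBS (enhanced reduced representation bisulfite sequencing) in oral soft tissue of female B6C3F1/J mice that were 8 weeks old when treatment began, in 12 samples that formed 4 groups with n = 3. One group received DMSO, the vehicle. The second received DBP (dibenzo[a,l]pyrene, also named dibenzo[def,p]chrysene), a polycyclic aromatic hydrocarbon, at 24 nmol in the oral cavity 3 times per week for 5 weeks. The third had DBP by the same regimen together with a chemopreventive agent, called the agent here because its name is absent from the labels. The fourth had DBP together with BR extract. The labels give neither dose nor route for the agent or for BR extract. Tissue was taken 48 h after the last dose. Each sample joined the buccal mucosa, the floor of the mouth and the soft tissue attached to the hard palate, so a level is an average over all cell types of these sites, and the labels do not say whether a sample came from a single mouse.

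Phase II enzymes attach groups such as glutathione, sulfate or acetyl to foreign compounds and their metabolites. Glutathione S-transferases attach glutathione to reactive compounds such as the diol epoxides formed from polycyclic aromatic hydrocarbons, which makes them soluble and ready for export. NRF2, the product of Nfe2l2, is a transcription factor that binds antioxidant response elements in many of these genes, and KEAP1 holds it in the cytoplasm and directs its degradation until electrophiles modify KEAP1. Methylation of CpG islands at promoters is known to accompany silencing, and methylation of GSTP1 in human prostate cancer is a known case, whereas bodies of transcribed genes are usually methylated.

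The sequences on which the results turn are given first, from the mm9 assembly, 5′ to 3′ on the strand of the gene, with each CpG that was read in at least 1 sample in capitals. The Srxn1 stretch is the last 50 bases before its start (chr2:151931202-151931251), where a CpG of an MspI site was methylated and most of its neighbours were nearly free of methylation. The Gstp1 (chr19:4037922-4038171) and Gstp2 (chr19:4042222-4042471) stretches are the 250 bases before the start of each of these neighbouring paralogs, whose promoters differed in methylation. The Gsto2 stretch (chr19:47949464-47949516) lies in a coding exon and holds 5 CpGs that gave most of the reads of the Gsto2 body in 11 of 12 samples.
Srxn1: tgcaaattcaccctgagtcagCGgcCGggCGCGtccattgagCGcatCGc
Gstp1: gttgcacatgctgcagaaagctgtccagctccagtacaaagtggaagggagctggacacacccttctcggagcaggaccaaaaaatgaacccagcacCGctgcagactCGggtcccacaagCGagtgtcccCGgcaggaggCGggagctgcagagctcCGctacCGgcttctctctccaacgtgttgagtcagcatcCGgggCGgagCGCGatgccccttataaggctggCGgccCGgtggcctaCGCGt
Gstp2: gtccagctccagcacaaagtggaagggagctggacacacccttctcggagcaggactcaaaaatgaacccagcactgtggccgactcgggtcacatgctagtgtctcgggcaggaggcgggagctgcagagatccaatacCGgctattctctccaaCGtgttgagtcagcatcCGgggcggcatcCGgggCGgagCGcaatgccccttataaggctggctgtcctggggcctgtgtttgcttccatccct
Gsto2: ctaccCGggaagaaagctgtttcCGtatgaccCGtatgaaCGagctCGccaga

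Depth differed between groups. Calls at CpG cytosines numbered 3287367 to 7974299 in the DMSO and DBP samples, and 16908728 to 78889043 in samples given DBP with the agent or with BR extract. Every library of the latter groups was deeper than every DMSO and DBP library, so in those comparisons treatment and depth cannot be told apart. BR extract replicate 1 stood apart, with the most calls and the lowest share of methylated calls (29.3%, against 30.7% to 41.3% in the other samples). Of the marker genes listed for cell types of the tissue and found in the annotation, 3 of 10 of the oral epithelium, 2 of 8 of skeletal muscle, 3 of 6 of fibroblasts and 1 of 3 of salivary gland had a promoter with 20 reads in all 12 samples, and none of the 6 immune and 4 endothelial markers did. Their summed promoter methylation in epithelium (Cdh1, Krt4 and Epcam) was 19.03% to 31.0% in DMSO, 17.6% to 21.8% in DBP, 21.4% to 31.7% with the agent and 13.4% to 23.4% with BR extract. Of the sums per cell type, only that of salivary gland, which held Aqp5 alone, separated DMSO (16.8% to 27.2%) from DBP (9.39% to 14.5%). Over all promoters, 10.8% separated these groups, 5.99% with DBP lower. Single markers of the other cell types were not compared. The part of the cell mixture in the results was not tested, and the labelled tissue cannot be checked from promoter methylation at so few markers.

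ERRBS sequences fragments that are cut at MspI sites, and the members were covered unevenly. Promoters of 17 members held 20 reads in all 12 samples, 13 did so in some samples and 7 in none (Gsta1, Gsta3, Gsta4, Gstm2, Gstm3, Sult1a1 and Nat1). This share of 45.9% was near the 47.0% of all protein-coding genes. The 17 were Gstm5, Gstp1, Gstp2, Gstt2, Gsto1, Gsto2, Gstk1, Gstz1, Mgst3, Nfe2l2, Keap1, Hmox1, Gclc, Gclm, Gss, Srxn1 and Abcc1. In the reference their promoters held a median of 77 CpGs and 7 MspI sites, against 29.5 CpGs and 3 MspI sites in the other 20 members. Gene bodies of 13 members held 20 reads in all samples, 11 in some and 13 in none. Gsta1, Gsta3, Gstm2 and Nat1 reached 20 reads in no region and no sample, so nothing can be said of them. In all, 3092 CpGs were read in the 37 genes, but only 45 of these had 10 or more reads in every sample.

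Most member promoters were lowly methylated in every group. The mean over the 12 samples was under 10% in 15 of the 17 promoters, and the median of these means was 6.39%, beside 5.93% over the 10504 promoters of all genes. Nfe2l2, which encodes NRF2, was at 5.13% to 9.40% in DMSO and 4.57% to 6.40% in DBP, at most 8.19% with the agent and 5.20% to 6.32% with BR extract, and its inhibitor Keap1 was between 0.992% and 7.01% in 11 samples. In DMSO replicate 2 no methylated read was found at Keap1, which at its 83 reads allows a level of up to 3.61%. The genes of glutathione synthesis were similar: Gclm, the modifier subunit of glutamate-cysteine ligase, was at 3.37% to 6.90%, and Gclc, its catalytic subunit, at 2.38% to 11.1%. Hmox1, the haem oxygenase that NRF2 induces, was at 2.98% to 6.30%. None of these 5 promoters reached 20% in any sample, and Keap1 had unadjusted p values (edgeR) of 0.411 for DBP against DMSO, 0.568 for the agent and 0.528 for BR extract.

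**Figure D1:**
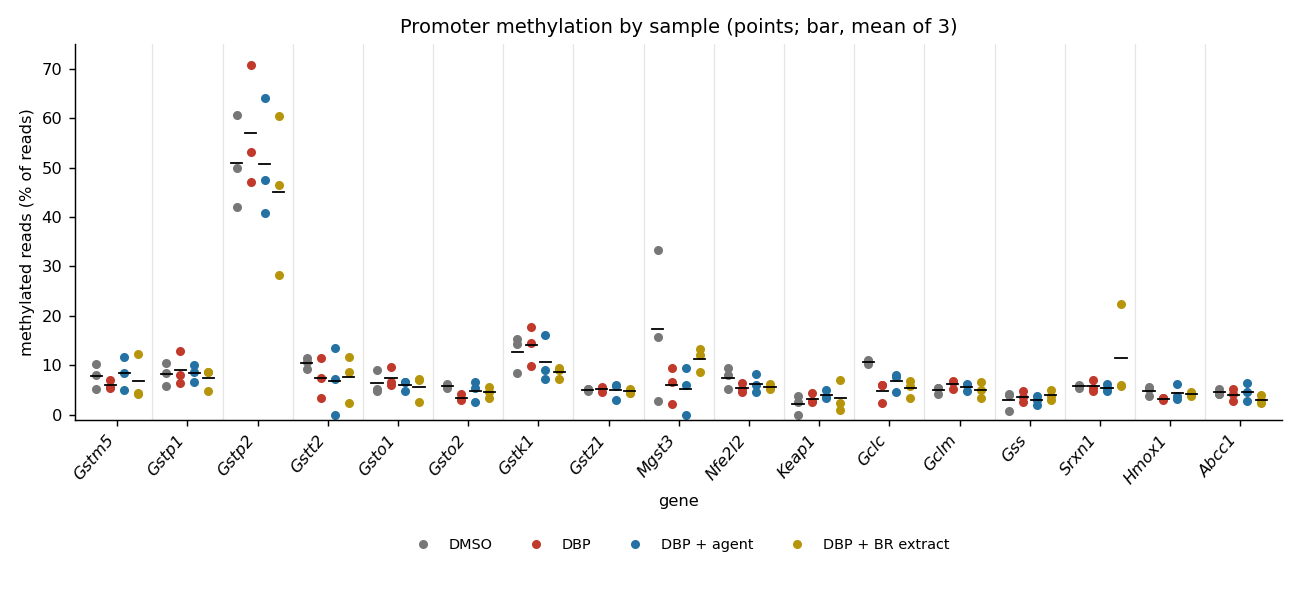
Percent of methylated reads in the promoters of the 17 members with 20 reads in all samples; each point is a sample, coloured by group, and each bar is the mean of 3. Gstp2 lies between 28.3% and 70.8%, the other promoters lie below 20% except for Mgst3 in DMSO replicate 2 (33.3%) and Srxn1 in BR extract replicate 2 (22.4%).

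Outside Gstp2, most methylated reads of these promoters lay at the CpGs of MspI sites (CCGG). MspI cuts these sites when the library is made, and their CpGs therefore sit at the ends of the fragments. Over the 17 promoters together, 25.1% to 35.6% of reads were methylated at CpGs of MspI sites in the 12 samples, against 0.559% to 2.55% at all other CpGs. The gene means ran from 23.2% to 51.4% at MspI sites, whereas 16 of 17 promoters had a mean under 5% elsewhere. MspI sites made up a median of 18.3% of the reads of a promoter but 94.2% of its methylated reads. The same contrast was seen over the promoters of all protein-coding genes (29.6% to 36.5% at MspI sites and 2.21% to 3.72% at other CpGs), so it is not particular to the members, and its cause was not tested.

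**Figure D2:**
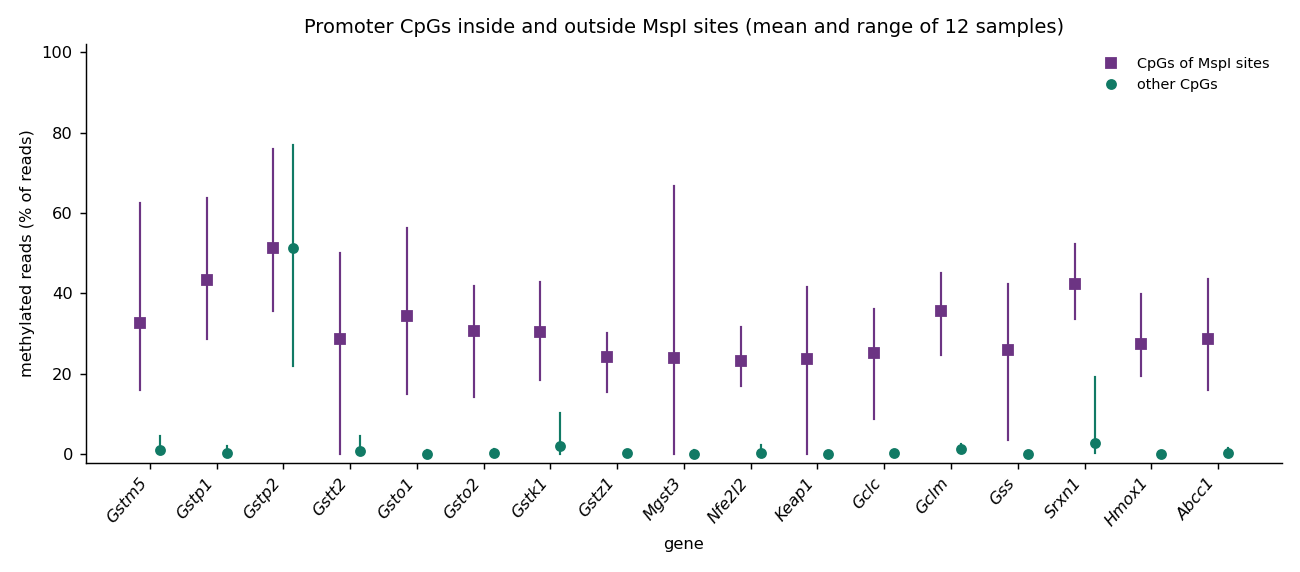
Percent of methylated reads at promoter CpGs inside MspI sites (squares) and at other promoter CpGs (circles) for the 17 members; symbols are means and lines the range of the 12 samples. Outside MspI sites 16 promoters have means under 5%, and Gstp2 is at 51.4% at both kinds of CpG.

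The start of Srxn1, which encodes sulfiredoxin, the enzyme that repairs over-oxidised peroxiredoxins, shows this at the scale of the sequence printed above. The CpG of the MspI site, 25 bases before the start, was methylated in 35.3% to 58.3% of reads in the 12 samples. The CpG 4 bases further on, 21 bases before the start, was at 1.45% to 30%. The 8 CpGs that followed, from 19 bases before to 23 bases after the start, were together at 0% to 1.55% in 11 samples, on 79 to 1099 reads. The remaining sample, BR extract replicate 2, was at 11.4% at the CpG 19 bases before the start (4 of 35 reads, 95% Wilson interval 4.54% to 26.0%), and 15 of the 16 CpGs outside MspI sites with 10 or more reads there were above 5%. Among the 15 was the CpG 21 bases before the start, where DMSO replicate 2 reached 30%. On another stretch of the same promoter, downstream of the start, a CpG was at 37.9% in BR extract replicate 2 (11 of 29 reads, Wilson interval 22.7% to 56.0%). The count was 11 of 29 at every CpG above 5% on that stretch outside MspI sites. From 19 bases before to 23 bases after the start, 4 reads were methylated at every CpG. Whether these were the same reads was not tested, so the 15 CpGs cannot be taken as independent observations. Intervals, and the limits given below for 0 methylated reads, hold for counting error alone, because PCR copies were not told apart by molecular identifiers.

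Gstp1 and Gstp2 encode pi-class glutathione S-transferases, which conjugate diol epoxides of polycyclic aromatic hydrocarbons, and lie next to each other on chromosome 19. The Gstp2 promoter was the 1 member of the 17 with a mean of 20% or more, beside 9.03% of all promoters tested. It was at 60.6%, 42.0% and 50.0% in DMSO, 47.1%, 70.8% and 53.1% in DBP, 40.8%, 64.1% and 47.4% with the agent and 60.5%, 28.3% and 46.5% with BR extract, on 30 to 237 reads. The Gstp1 promoter was at 8.47%, 10.4% and 5.88% in DMSO, 8.13%, 6.47% and 12.8% in DBP, 10.02%, 6.70% and 8.57% with the agent and 8.57%, 4.76% and 8.71% with BR extract, on 34 to 969 reads. In every sample Gstp2 was above Gstp1, while for both genes the 4 groups overlapped. Outside MspI sites, reads of all samples together were methylated in 52.6% at Gstp2 (458 of 871) and in 0.372% at Gstp1 (13 of 3495). The 250 bases printed above were 88.9% identical over 226 aligned bases, but Gstp1 has 17 CpGs there and Gstp2 has 12. Reads that fit both copies could be misplaced, and how they were treated is not given in the sources used here. The Gstm1 promoter was also high (14.4% to 59.3% in the 11 samples with 20 reads), but there the methylated reads lay at MspI sites, with a mean of 49.3%, against 1.84% at other CpGs.

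Gene bodies were highly methylated. The 13 bodies had means from 41.0% to 91.0% with a median of 77.8%, beside 72.3% over 8844 bodies of all genes. Abcc1, the exporter of glutathione conjugates, was the highest, at 87.0% to 95.6% in the 12 samples. Gsta4, Gstz1, Gss, Keap1 and Gclc had means above 80%. Only Gsto2, Gsr and Txnrd1 had means under 60%.

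**Figure D3:**
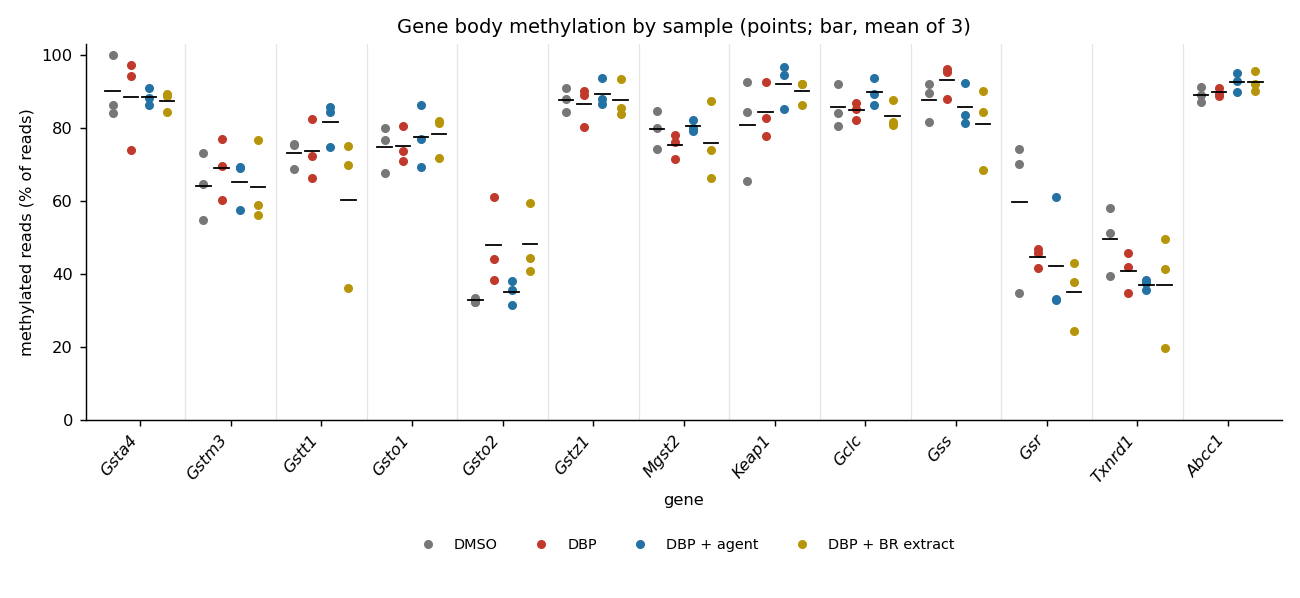
Percent of methylated reads in the bodies of the 13 members with 20 reads in all samples; each point is a sample, coloured by group, and each bar is the mean of 3. The bodies of Gsto2, Gsr and Txnrd1 have the lowest means, and Gstt1 in BR extract replicate 1 is at 36.1%.

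The intermediate bodies of Gsr, glutathione reductase, and Txnrd1, thioredoxin reductase, were mixtures of methylated and unmethylated stretches. Both genes have further coding transcripts that start within the body, at 1 place in Gsr, 1067 bases from the first start, and at 2 places in Txnrd1. Within 1000 bp of these starts, methylation was 1.72% to 7.30% in the 10 samples with 20 reads at Gsr and 0% to 7.46% in the 12 samples at Txnrd1. In the rest of the body it was 77.3% to 91.7% at Gsr and 68.8% to 86.5% at Txnrd1. The level of the whole body followed how many of its reads came from the unmethylated stretch. At Gsr this share was 57.8%, 8.91% and 17.9% in DMSO, against 47.9%, 50.9% and 48.9% in DBP. The whole body was at 34.8%, 74.3% and 70.1% in DMSO, against 46.9%, 45.7% and 41.6% with DBP alone. The difference of the group means in the whole body (59.7% ± 21.7 in DMSO and 44.7% ± 2.74 in DBP, mean ± SD) was not seen in the rest of the body, which was at 80.1% ± 3.23 in DMSO and 84.1% ± 5.10 in DBP. BR extract replicate 1, the deepest library, had the largest share of reads at these starts (74.6% at Gsr and 81.3% at Txnrd1) and the lowest levels in the whole body (24.2% and 19.6%). This split was chosen after the values were seen.

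**Figure D4:**
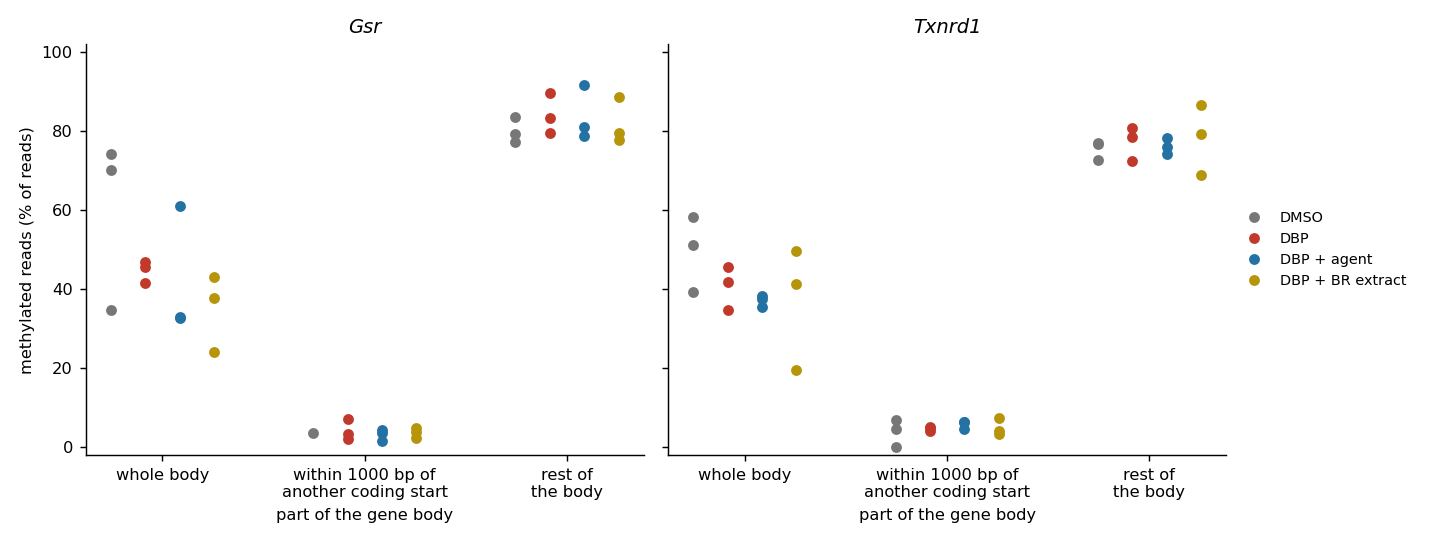
Percent of methylated reads in the whole body of Gsr and Txnrd1, within 1000 bp of another coding start and in the rest of the body; each point is a sample with 20 reads in that part. The stretches around other starts lie below 8%, the rest of the bodies lies between 68.8% and 91.7%, and the whole bodies lie in between.

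The comparison of DBP with DMSO asks whether the carcinogen altered methylation of the genes that detoxify it. No member passed the test. In edgeR's quasi-likelihood test with Benjamini-Hochberg adjustment over all genes, 0 of 17 member promoters and 0 of 13 member bodies were called, as were 0 of 10504 promoters (0%) and 0 of 8844 bodies (0%) of all genes. At an unadjusted p under 0.05, 316 promoters (3.01%) and 326 bodies (3.69%) of all genes passed, among them 1 member promoter and 1 member body. limma gave 0 calls too, with 610 promoters and 486 bodies at an unadjusted p under 0.05. The median difference of the member promoters, DBP minus DMSO, was -0.0220 percentage points, beside -0.251 over all promoters, and that of the member bodies was 0.332 points, beside -0.681.

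The Gclc promoter had the smallest p. It was at 10.3%, 11.1% and 10.9% in DMSO and at 6.11%, 2.38% and 6.05% in DBP, a difference of -5.90 points (edgeR, unadjusted p = 0.0349, adjusted p = 1.00), and the groups did not overlap. The thinnest sample had 46 reads. The unadjusted p (edgeR) was 0.0534 to 0.0763 without any one of the DMSO samples and 0.150 without DBP replicate 2. The difference lay at CpGs of MspI sites, which were at 33.3%, 32.4% and 29.4% in DMSO and 21.9%, 8.89% and 26.5% in DBP. At its other CpGs, none of the reads of the DMSO samples was methylated, which allows up to 3.70%, 4.62% and 10.3%, and the highest DBP level was 1.01%. That level was 1 methylated read of 99 in DBP replicate 1. DBP replicates 2 and 3 had none, which allows up to 2.44% and 1.81%. Without CpGs of MspI sites the fitted difference turned the other way (edgeR, unadjusted p = 0.461), a direction that rests on this 1 read. Groups did not overlap at 3 of 17 member promoters, lower in DBP each time (Gclc, Gsto2 and Hmox1), beside 10.8% of all promoters, 5.99% lower and 4.82% higher in DBP. The promoter of Gsto2, an omega-class transferase, was at 5.80%, 5.41% and 6.25% in DMSO against 3.12%, 4.17% and 2.93% in DBP, and Hmox1 was at 5.60%, 3.85% and 5.26% against 2.98%, 3.45% and 3.32%. The promoter of the marker Aqp5 separated the same groups in the same direction, and its part here was not tested. Mgst3, a microsomal transferase, had the second smallest p (edgeR, unadjusted p = 0.147, adjusted p = 1.00) but ranged from 2.86% to 33.3% within DMSO, against 2.13% to 9.52% in DBP. Nfe2l2 had the third (edgeR, unadjusted p = 0.164, adjusted p = 1.00), with 7.54% ± 2.19 in DMSO and 5.42% ± 0.922 in DBP (SD).

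Among the bodies, Gsto2 had the smallest p. It was at 32.3%, 33.5% and 32.4% in DMSO and at 61.2%, 44.0% and 38.3% in DBP, on 176 or more reads, a difference of 15.1 points (edgeR, unadjusted p = 0.0293, adjusted p = 0.998). The DMSO samples were nearly equal and all 3 DBP samples were above them, as was so in either direction for 1 of 13 member bodies and for 12.6% of all bodies (5.13% higher and 7.44% lower). The unadjusted p (edgeR) was 0.0509 to 0.0585 without any one of the DMSO samples and 0.185 without DBP replicate 1, the highest sample. Gss, glutathione synthetase, was at 81.6%, 92.1% and 89.7% in DMSO and at 88.0%, 95.5% and 96.2% in DBP (edgeR, unadjusted p = 0.162, adjusted p = 0.998). Gsr followed (edgeR, unadjusted p = 0.193, adjusted p = 0.998).

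The Gsto2 body was a sum over the 5 CpGs of the coding exon printed above and the rest of the body. Summed over the exon CpGs, methylation was 23.5%, 22.2% and 22.4% in DMSO, 57.3%, 40.4% and 24.1% in DBP, 26.2%, 24.2% and 20.8% with the agent and 41.6%, 42.2% and 34.0% with BR extract. DBP replicates 1 and 2 stood well above the DMSO samples, and DBP replicate 3 just above them. In DBP replicate 3 the exon CpGs made up 61.7% of the body's reads, against 66.7%, 72.5% and 81.2% in DMSO. Outside the exon it was at 61.2%, above DMSO replicate 1 (50.0%) and below the other DMSO samples. How far the read share and the levels of the parts each entered its whole-body level was not tested. The share was 62.2% and 73.1% in DBP replicates 1 and 2, and 11.3% in BR extract replicate 1, whose whole body (59.5%) therefore mostly shows the rest of the body. The agent samples overlapped the DMSO samples, and the BR extract samples lay above DMSO and below DBP replicate 1. The first of the 5 CpGs, that of the MspI site, was at 33.3% to 56.0% over all samples and its groups overlapped. DBP replicate 3 also lay within the DMSO range at the third and the fourth CpG. The other CpGs of the body were at 50.0%, 63.1% and 75.8% in DMSO, against 67.6%, 53.8% and 61.2% under DBP. The exon CpGs lie in 1 stretch of 53 bases, so they are not independent of each other.

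**Figure D5:**
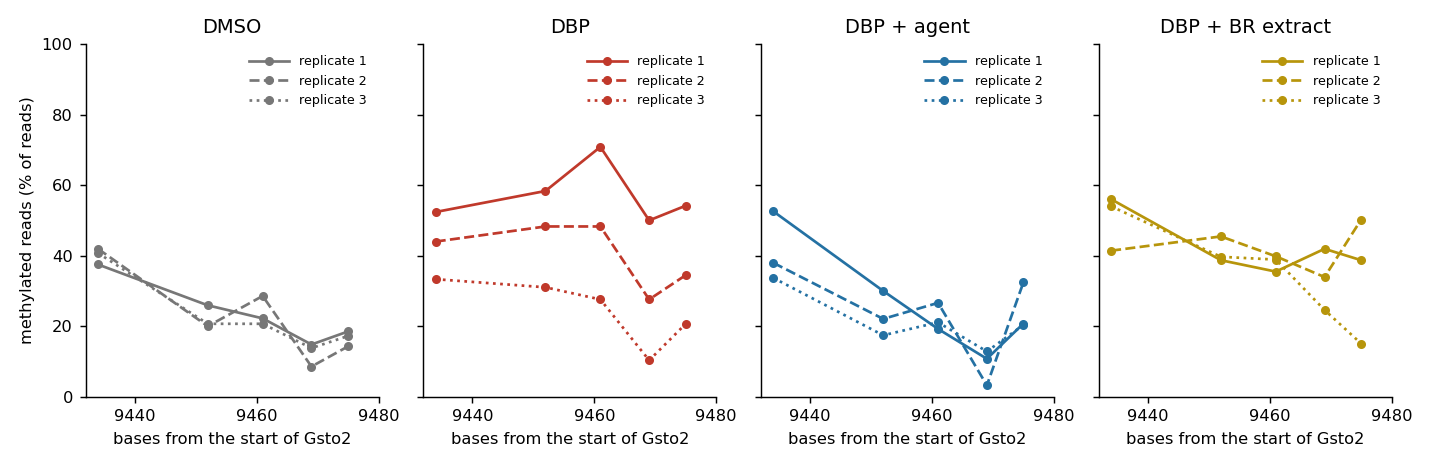
Percent of methylated reads at the 5 CpGs of the Gsto2 coding exon against their distance from the start in bases, one panel per group and one line per replicate. Summed over the CpGs, DMSO lies at 22.2% to 23.5%, DBP spreads from 24.1% to 57.3%, the agent group lies at 20.8% to 26.2% and the BR extract group at 34.0% to 42.2%.

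At single CpGs, tested by logistic regression and called at q under 0.01 with a difference over 10 points, none of 51 member CpGs in 14 genes was called between DBP and DMSO, beside 60 of all 53602 CpGs tested (0.112%, and 0.0466% without coverage scaling). At an unadjusted p under 0.05 were 5777 CpGs, and limma, run on 39485 CpGs, called 0, with 2473 at an unadjusted p under 0.05. The smallest q among members was 0.0228, at a CpG in an intron of Nfe2l2 (position 75542349 of chromosome 2, an MspI site). It was at 38.7%, 52.9% and 5.88% in DMSO and 9.09%, 8.33% and 6.67% in DBP, so that DMSO replicate 3 lay below the whole DBP group. Without that sample the CpG was called. The next were the exon CpGs of Gsto2 at positions 47949487 (q = 0.0626, 23.8 points higher in DBP) and 47949496 of chromosome 19 (q = 0.0689, 24.0 points higher).

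The agent with DBP was compared with DBP alone, which asks whether the agent altered methylation under the carcinogen. This comparison and the next share the DBP samples, and in both the treated libraries were the deeper ones. No member promoter or body was called by edgeR, nor was any of the 10504 promoters (0%) or 8844 bodies (0%), with 223 promoters (2.12%) and 270 bodies (3.05%) at an unadjusted p under 0.05, none of them a member. limma also gave 0 calls, with 273 promoters and 391 bodies at an unadjusted p under 0.05. The median difference, agent minus DBP, was -0.303 points in the member promoters, beside 0.163 in all, and 2.39 points in the member bodies, beside 0.0922. The member promoters with the smallest p were Gsto2 (4.84% ± 2.10 against 3.41% ± 0.666, edgeR, unadjusted p = 0.244, adjusted p = 1.00), Hmox1 (4.44% ± 1.65 against 3.25% ± 0.242, unadjusted p = 0.309, adjusted p = 1.00) and Gstm5, a mu-class transferase (8.46% ± 3.35 against 6.02% ± 0.847, unadjusted p = 0.323, adjusted p = 1.00). No member promoter separated the groups, beside 9.11% of all promoters (6.3% higher and 2.81% lower).

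Among the bodies, Gsto2 again had the smallest p. It was at 38.0%, 35.5% and 31.6% with the agent and at 61.2%, 44.0% and 38.3% in DBP (edgeR, unadjusted p = 0.0549, adjusted p = 1.00). Keap1 was at 96.7%, 85.3% and 94.4% with the agent and 82.8%, 77.7% and 92.5% in DBP (edgeR, unadjusted p = 0.0698, adjusted p = 1.00). Gss was at 83.5%, 81.4% and 92.4% against 88.0%, 95.5% and 96.2% (edgeR, unadjusted p = 0.0728, adjusted p = 1.00). Of the 13 bodies, Gsto2 (lower) and Mgst2 (higher, 79.1%, 80.0% and 82.2% against 76.2%, 78.1% and 71.4%) did not overlap between groups, beside 11.7% of all bodies (6.42% higher and 5.29% lower).

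At single CpGs, 7 of 165 member CpGs in 24 genes (4.24%) were called between the agent group and DBP, beside 5.42% of all 127353 CpGs tested (1.18% without coverage scaling). Of the 7, 6 were lower with the agent, neighbouring CpGs of the Gsto2 exon among them. Of all 6902 CpGs called, 3719 were higher. The smallest q values were in the Gsto2 exon. Its CpGs at positions 47949487, 47949496 and 47949504 of chromosome 19 were lower with the agent, with differences of -22.2, -24.8 and -19.7 points (q = 1.7e-05, 1.25e-06 and 8.49e-07). At 47949504 the groups overlapped, with 10.8%, 3.25% and 12.8% with the agent against 50.0%, 27.6% and 10.3% in DBP. Of the 7, only 47949487, 47949496 and the Txnrd1 CpG below had groups that did not overlap. The Gsto2 CpGs and the Gss CpG below were still called without coverage scaling. The first was called in 6 of 6 comparisons that left out a sample and each of the others in 5 of 6. Gss was lower in a coding exon (position 155404086 of chromosome 2, difference -16.99 points, q = 3.46e-05), with 79.4%, 65% and 100% with the agent against 93.3%, 100% and 96.3% in DBP. Txnrd1 was 18.8 points higher in an intron (position 82329509 of chromosome 10), at 82.2%, 96.4% and 95% against 80.8%, 78.3% and 60.0%. The Gstm3 CpG in an intron (position 107763611 of chromosome 3, difference -14.6 points) and the Srxn1 CpG at 21 bases before the start (difference -10.2 points) were each called in 3 of 6 comparisons with a sample left out. This test takes no spread between samples into account, and limma, run on 91257 CpGs, called 0, with 20442 at an unadjusted p under 0.05 and a smallest member q of 0.0979.

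BR extract with DBP was compared with DBP alone in the same way. No member promoter or body was called by edgeR, and neither was any of the 10504 promoters (0%) or 8844 bodies (0%), with 405 promoters (3.86%) and 333 bodies (3.77%) at an unadjusted p under 0.05. limma gave 0 calls, with 536 promoters and 418 bodies at an unadjusted p under 0.05. The median difference, BR extract minus DBP, was 0.208 points in the member promoters, beside -0.355 in all, and -1.002 points in the member bodies, beside -0.214. Srxn1 had the smallest p among promoters (edgeR, unadjusted p = 0.105, adjusted p = 1.00). It was at 5.94%, 22.4% and 5.86% with BR extract and 4.87%, 5.51% and 6.96% in DBP, so its mean rests on BR extract replicate 2. Gstk1, the kappa-class transferase, was at 9.04%, 9.50% and 7.26% against 17.7%, 14.6% and 9.80% (edgeR, unadjusted p = 0.135, adjusted p = 1.00). Gclm was at 3.37%, 6.72% and 4.96% against 5.27%, 6.90% and 6.56% (edgeR, unadjusted p = 0.239, adjusted p = 1.00). Groups did not overlap at Gstk1 (lower) and Hmox1 (higher, 4.53%, 3.80% and 4.23% with BR extract), 2 of 17 member promoters, beside 10.1% of all promoters (2.31% higher and 7.74% lower).

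Among bodies, Gss had the smallest p, at 84.4%, 68.4% and 90.2% with BR extract against 88.0%, 95.5% and 96.2% in DBP, a difference of -12.2 points (edgeR, unadjusted p = 0.0247, adjusted p = 1.00). The unadjusted p (edgeR) was 0.0939 without BR extract replicate 2, the lowest sample, and 0.0958 and 0.0995 without DBP replicates 2 and 3. Abcc1 was at 92.0%, 95.6% and 90.2% against 91.1%, 88.8% and 89.3% (edgeR, unadjusted p = 0.2003, adjusted p = 1.00). Gstt1, a theta-class transferase, was at 36.1%, 75% and 69.8% against 82.4%, 66.3% and 72.2% (edgeR, unadjusted p = 0.215, adjusted p = 1.00). No member body separated the groups, beside 8.92% of all bodies (4.27% higher and 4.65% lower).

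At single CpGs, 11 of 144 member CpGs in 22 genes (7.64%) were called between BR extract and DBP, beside 8.6% of all 104409 CpGs tested (1.84% without coverage scaling). They lay in 8 genes, and 8 were lower and 3 higher with BR extract. Of all 8980 CpGs called, 3819 were higher. CpGs of MspI sites made up 7 of the 11, beside 36 of the 144 member CpGs tested. For the agent they made up 1 of the 7 called, beside 40 of the 165 tested. Their share of all called CpGs was not counted, so neither count can be read as an excess. The Gss CpG at position 155404086 of chromosome 2, which was also lower with the agent, had the smallest q (7.46e-10). It was at 81.2%, 48.6% and 83.0% with BR extract, all below the DBP samples, and it was the only one still called without coverage scaling. A second Gss CpG (position 155404043) differed by -11.1 points. Txnrd1 was 15.7 points higher at the same intron CpG as with the agent and lower at another (position 82316949 of chromosome 10, difference -14.8 points), where BR extract replicate 1 (90.9%) lay above all DBP samples (53.2% to 63.4%) and replicates 2 and 3 (40.8% and 44.9%) below them. Gstm3 was lower at intron CpGs (positions 107763611 and 107763656 of chromosome 3), with differences of -16.7 and -13.4 points. BR extract replicate 1 was not below DBP at either CpG. It was at 45.5% at 107763611 (DBP 37.0% to 53.8%) and at 100% at 107763656, above all DBP samples (76.5% to 90.7%). Gstm1 was lower upstream of its start (position 107821467 of chromosome 3), with a difference of -23.01 points, although BR extract replicate 1 (59.3%) was not below the DBP samples. The difference was -21.6 points at Gstt1 in a coding exon (position 75256853 of chromosome 10) and -20.1 points at Nfe2l2 upstream of its start (position 75542943 of chromosome 2). Abcc1 was 10.4 points higher in an intron (position 14429870 of chromosome 16). Srxn1 was 10.4 points higher at position 151931259 of chromosome 2, 7 bases after the start, with 13 of 100 reads methylated in replicate 3 (Wilson interval 7.76% to 21.0%), 4 of 35 in replicate 2 and none of 42 in replicate 1, which allows up to 7.14%. Without replicate 3 this CpG was not called. From 19 bases before to 23 bases after the start, replicate 3 had 13 methylated reads of 841, all of them at this CpG. The Nfe2l2 CpG had 0 of 17 methylated reads in replicate 2, against 33.3% and 41.3% in replicates 1 and 3. Of the 11, only those of Gss (155404086), Gstt1 and Abcc1 had groups that did not overlap. With each sample left out in turn, Gss (155404086) and Gstm3 (107763656) were called in 6 of 6 comparisons, Gstt1 and Nfe2l2 in 2 of 6, Abcc1 and Txnrd1 (82329509) in 3 of 6 and the others in 4 or 5 of 6. limma, run on 74095 CpGs, called 0, with 10680 at an unadjusted p under 0.05 and a smallest member q of 0.295.

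Further genes of the pathway were taken from a list of 84, among them other transferases, aldehyde dehydrogenases, peroxiredoxins and small MAF proteins. Of these, 44 promoters and 41 bodies were tested, and edgeR called 0 in any of the 3 comparisons. limma called 0 too. At an unadjusted p under 0.05, edgeR had 1, 0 and 0 of the 44 promoters for DBP, the agent and BR extract. The shares of all promoters were 3.01%, 2.12% and 3.86%. Of the 41 bodies it had 2, 4 and 2, beside 3.69%, 3.05% and 3.77% of all bodies. The promoters with the smallest p were Maff, a small MAF partner of NRF2, between DBP and DMSO (5.87% ± 1.26 in DBP and 15.04% ± 7.27 in DMSO, edgeR, unadjusted p = 0.0396), Ggt5 for the agent (12.7% ± 3.08 against 23.2% ± 14.9, unadjusted p = 0.0999) and Prdx6 for BR extract (4.78% ± 1.40 against 7.55% ± 0.825, unadjusted p = 0.0653). The bodies were Nfe2l1 between DBP and DMSO (33.6% ± 17.3 and 64.2% ± 15.4, edgeR, unadjusted p = 0.0205), Papss1 for the agent (92.9% ± 1.06 against 84.7% ± 4.24, unadjusted p = 0.0113) and Aldh3a2 for BR extract (43.8% ± 5.24 against 63.7% ± 8.33, unadjusted p = 0.0287). In edgeR the adjusted p was 0.998 for Nfe2l1 and 1.00 for the other ones.

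The antioxidant response element was looked for in the 250 bases before each start, on both strands of mm9. Its core, TGACNNNGC, was found in 5 of 37 members (13.5%) and in 10.02% of all protein-coding genes. The related form TGAGNNNGC, added after the first search, was found in 9 members (24.3%) and in 14.5% of all genes. The core matches of members with a tested promoter or body, and the related form in the Gstp pair and next to the start of Srxn1, are printed with the match in capitals, on the strand of the gene. A match is a description of the letters and not evidence of binding.
Gclm, chr3:121948341-121948349, opposite strand: ccgggcGCACCGTCAactctc
Gsr, chr8:34762966-34762974: ttcttaTGACTTAGCagtatt
Gstz1, chr12:88488425-88488433, opposite strand: tccgctGCCCCGTCAaggggt
Gstm5, chr3:107698730-107698738: gcccacTGACCACGC
Srxn1, chr2:151931215-151931223: tcacccTGAGTCAGCggccgg
Gstp1, chr19:4037978-4037986: acgtgtTGAGTCAGCatccgg
Gstp2, chr19:4042302-4042310: acgtgtTGAGTCAGCatccgg
The match and its 6 flanking bases on either side are the same in Gstp1 and Gstp2, 65 and 89 bases before the respective starts, although the methylation of these promoters differed. In Srxn1 the last base of the match is the C of the first CpG in the stretch printed at the beginning.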

How the data were processed

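ERRBS data of 12 samples were used. Per the labels and the study's methods, the authors used Trim Galore 0.3.3 for trimming and Bismark 0.10.1 for alignment (mm9) and methylation calls, and deposited for each CpG cytosine the counts of methylated and unmethylated reads. The deposited percent of methylated reads equals the value from the counts and was not used further. Groups and replicate numbers came from the labels.

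Counts were summed per region and tested with edgeR 4.0.16 in R 4.3.3 (quasi-likelihood F test, a depth term per sample, all 12 samples, all protein-coding genes with 20 reads in every sample and at least 1 methylated and 1 unmethylated read), with Benjamini-Hochberg adjustment and a threshold of 0.05. limma 3.58.1 used log2((methylated + 1)/(unmethylated + 1)), computed from the deposited counts. For single CpGs, positions needed 10 reads in each sample and a depth up to the 99.9 percentile, coverage was scaled, strands were merged, and logistic regression with a likelihood ratio test was run, so a few percentages of single CpGs rest on more reads than the test used. On simulated data with a fixed spread between samples, 200 of 8844 bodies, chosen at intermediate levels, were moved by 35 points between DBP and DMSO. There edgeR recovered 185 with 3 false calls, and logistic regression recovered 200 with 2304 false calls. Nothing says that samples came from separate animals, so p-values of edgeR and limma measure only the spread between these samples. The p and q values of the logistic regression take in read counting and no spread between samples. For single CpGs, coverage scaling first multiplied the counts of shallower samples. The factor was at most 1.21 for DBP against DMSO, 1.94 for the agent and 2.56 for BR extract. For those samples the test thus counted more reads than were sequenced, and its p and q values understate the counting error.

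The members, lists and named genes were chosen with earlier results of these data known. Values are given in full for members with an adjusted p under 0.05, the 3 smallest p per comparison and region, promoters at 20% or more, Nfe2l2, Keap1, Hmox1, Gclc and Gclm, and for member CpGs that were called or had the 3 smallest p per comparison. Of the other pathway genes, those with the smallest p are given. Alternatives changed the read minimum, the window, the test, the samples, the scaling and the replicate block. Leaving out CpGs of MspI sites and limma per CpG were chosen after seeing the data.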

Additional observations from a re-analysis of the deposited data

How the results depend on the processing

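No member promoter or body was called by edgeR under the other read minimums, the narrower promoter, the depth limit, the 6 compared samples alone or without CpGs of MspI sites, nor by limma, nor when any single sample was left out. Logistic regression, which takes no spread between samples into account, called 3 of 17 member promoters (Gclm, Gstk1 and Srxn1, 17.6%) for BR extract, beside 23.6% of all promoters. It called 2 of 13 member bodies for DBP against DMSO, 5 for the agent and 3 for BR extract (15.4%, 38.5% and 23.1%), beside 16.5%, 24.1% and 39.0% of all bodies. Of the other pathway genes it called 1, 3 and 9 of 44 promoters (2.27%, 6.82% and 20.5%, beside 3.69%, 10.2% and 23.6% of all promoters). It called 9, 11 and 19 of their 41 bodies (22.0%, 26.8% and 46.3%, beside 16.5%, 24.1% and 39.0% of all bodies). Deviations of same-numbered samples had correlations from -0.100 to 0.214 in promoters and from -0.0881 to 0.340 in bodies. These were over 0.1 in 1 and 4 of 18 pairs. The highest, in both kinds of region, was between replicates 1 of DMSO and BR extract. The same number was the best match in 9 of 18 promoter pairs and 6 of 18 body pairs. Whether the numbers pair the samples cannot be decided from these values. With a replicate block, 0 member regions were called. Member CpGs called were then 0 of 51 for DBP, 7 of 165 for the agent and 9 of 144 for BR extract. These shares were 0%, 4.24% and 6.25%, beside 0.106%, 5.65% and 7.88% of all CpGs.

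The number of member CpGs called depended on the settings. For the agent (7 of 165) it was 13 of 279 at 5 reads (4.66%, beside 5.65% of all CpGs) and 5 of 47 at 20 reads (10.6%, beside 4.76%). It was 4 without coverage scaling (2.42%, beside 1.18%), 0 above 25 points (beside 0.755%) and 0 of 85 with limma. For BR extract (11 of 144) it was 23 of 248 at 5 reads (9.27%, beside 6.62%), 3 of 39 at 20 reads (7.69%, beside 7.69%), 1 without scaling (0.694%, beside 1.84%), 0 above 25 points (beside 1.01%) and 0 of 90 with limma. With each sample left out in turn it was 0 to 1 for DBP, 4 to 11 for the agent and 9 to 16 for BR extract. The 1 for DBP was of 80, without DMSO replicate 3 (1.25%, beside 0.0442%). For the agent the lowest was 4 of 186 without DBP replicate 1 (2.15%, beside 4.35%). Its highest was 11 of 170 without DBP replicate 3 (6.47%, beside 4.82%). For BR extract the lowest was 9 of 164 without DBP replicate 1 (5.49%, beside 7.58%). Its highest was 16 of 167 without BR extract replicate 1 (9.58%, beside 5.55%).

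The median difference of member bodies was -2.51 points for the agent at 50 reads per region and 3.89 points for DBP against DMSO when cytosines were weighted equally. With each sample left out, the median difference in promoters ran from -0.613 to -0.00991 for DBP, from -0.758 to 0.774 for the agent and from -0.502 to 0.341 for BR extract, and in bodies from -1.91 to 1.80, from -0.242 to 3.54 and from -2.004 to 0.592. On simulated data for DBP against DMSO, edgeR recovered 185 of 200 bodies moved by 35 points, and the CpG test 172 of 200 CpGs moved by 40 points. The moved bodies and CpGs started at intermediate levels, and no promoter was simulated. The spread between samples was the same fixed value for all bodies, and the simulated CpGs had none beyond read counting. Recovery at highly methylated bodies and lowly methylated promoters, such as those of most members, is therefore not known. Smaller changes were not simulated.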

Other observations

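Some members outside the comparisons had enough reads in a few samples. The promoter of Mgst2, a microsomal transferase, held 20 reads in 3 samples, all given the agent or BR extract, and was at 85.2% to 92.5% there. In agent replicate 3, no methylated read was found in the promoters of Gstt2 (71 reads, which allows up to 4.23%) and Mgst3 (95 reads, up to 3.16%), while the other samples were at 2.43% to 13.5% and 2.13% to 33.3%.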
